A study of Mus musculus with 2 samples.

Results

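The set comprised 50 named mouse genes of protein folding, taken by symbol: chaperones of the cytosol, the mitochondrion and the endoplasmic reticulum (ER), folding enzymes, and regulators of the stress responses that control them. Of these 50 symbols, 49 were matched by gene identifier to the deposited tables, which held 42462 named genes, 21474 of them protein coding. The entry of Hspa14, which encodes an Hsp70 bound to ribosomes, carried another symbol in the annotation used for the names. Its 6 annotated transcripts summed to 106 TPM in replicate 1 and 116 TPM in replicate 2, a mean of 111 ± 6.61 TPM (SD, n = 2), and it was left out of all counts given here. TPM is a transcript level corrected for transcript length and library size, so that different genes can be compared within a library.

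The RNA came from the embryonic facial prominences of B6NCrl mice at embryonic day 10.5, the swellings of mesenchyme, epithelium, vessels and nerve that fuse into the face. All embryos were healthy and untreated, and males and females were pooled. Replicate 1 held tissue of 69 embryos and replicate 2 tissue of 51, both listed under the same strain donor, so the series had 1 group and no contrast between conditions. Each library was built from 10 ng of total RNA longer than 200 nt with spike-in controls, and a manual for a kit for very low RNA input was linked in the labels. An SD over these 2 pools is the spread between pools, not between embryos. No 2-sided exact permutation test of 2 against 2 unpaired values can give a p below 0.33.

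Chaperones bind unfolded protein and release it in cycles driven by ATP. In the cytosol, Hsp70 proteins take up nascent chains with J-domain partners, Hsp90 matures kinases and receptors, and the CCT ring encloses actin and tubulin. Mitochondria and the ER carry their own Hsp70 and Hsp90 proteins, and the ER adds lectins, disulfide isomerases and the collagen chaperone Serpinh1. Hsf1 switches on heat shock genes when cytosolic proteins unfold, whereas Ern1, Atf6 and Eif2ak3 sense unfolded protein in the ER and act through Xbp1, cleaved Atf6 and Ddit3. Facial mesenchyme secretes a collagen-rich matrix, and its cells divide rapidly at this stage.

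The libraries held 41492881 estimated counts in replicate 1 and 41153413 in replicate 2. The chaperone set took 2.52% of the counts on genes in replicate 1 (exact binomial 95% interval 2.52% to 2.53%) and 2.63% in replicate 2 (2.63% to 2.64%), intervals that cover counting error only. A level of at least 1 TPM in both pools was reached by 48 of the 49 members (98%), against 58.2% of the named protein coding genes. Hspa1b alone stayed below it. The median level of detected protein coding genes was 20.1 TPM, and 39 of the 49 members (79.6%) were above it. Levels of at least 100 TPM were found for 31 members, out of 1683 protein coding genes at that level, and levels of at least 500 TPM for 17 members, out of 252. In whole tissue, fewer cells of a type and less RNA per cell cannot be told apart, so each level is that of the mixture.

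**Figure D1:**
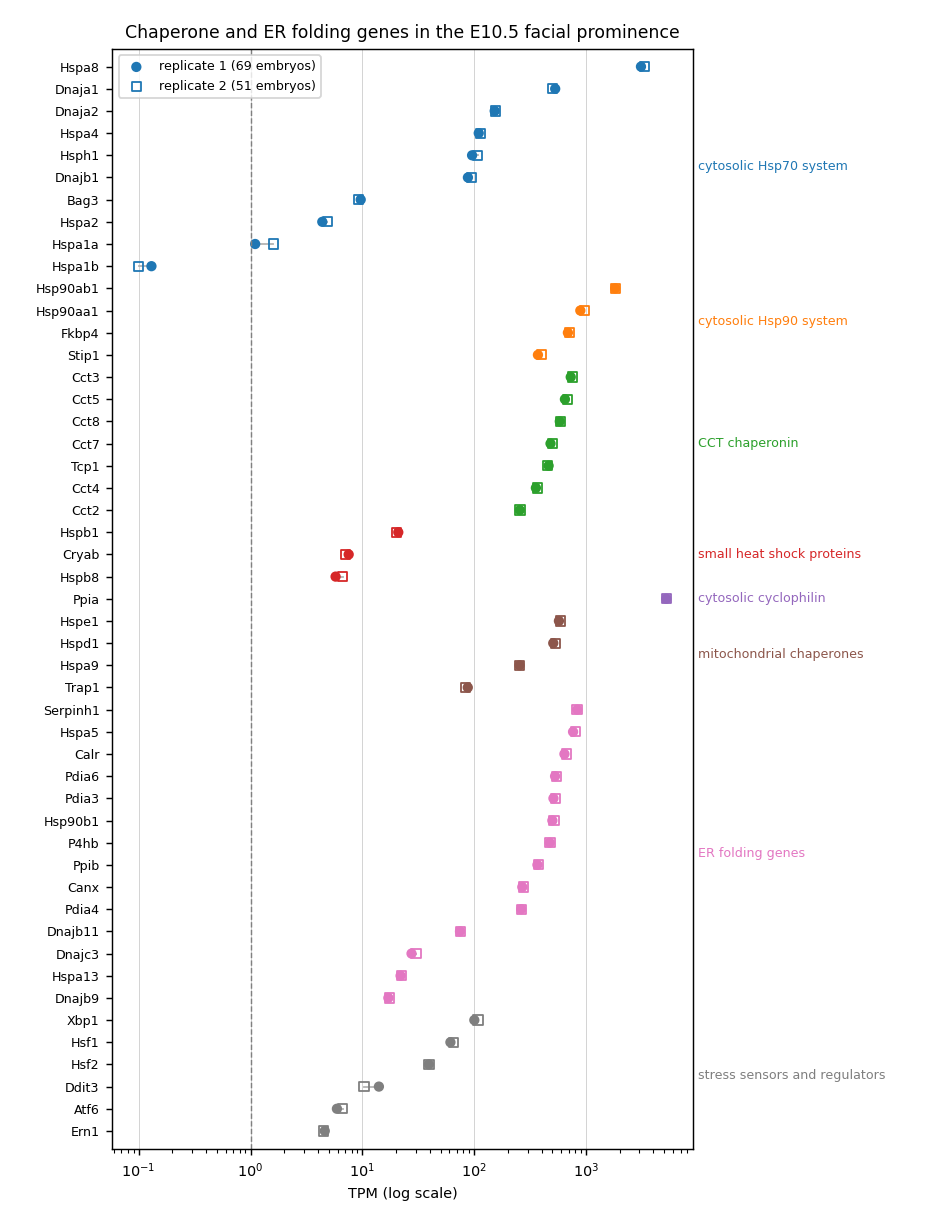
TPM of each of the 49 genes (log scale) in replicate 1 (filled circles) and replicate 2 (open squares), ordered by mean level within its class. The dashed line marks 1 TPM. Levels run from 0.115 TPM for Hspa1b to 5211 TPM for Ppia, and within each row the pools lie close together, farthest apart for Hspa1a, Hspa1b and Ddit3.

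The cytosolic Hsp70 system had the widest range of any class. Hspa8, the constitutive Hsc70, was at 3096 TPM in replicate 1 and 3336 TPM in replicate 2 (mean 3216 ± 170, SD, n = 2), and ranked 9 among protein coding genes. The stress-inducible pair was at the other end. Hspa1a was at 1.10 and 1.60 TPM (1.35 ± 0.354), from 83.7 and 121 estimated counts. Hspa1b was at 0.13 and 0.10 TPM (0.115 ± 0.0212), from 9.28 and 7.11 estimated counts, so its level rests on few reads. Summed, the inducible pair differed from Hspa8 by -11.02 log2 units (interval -11.59 to -10.45), or by -10.36 with a pseudocount of 1 TPM. This difference and those that follow are of log2(TPM + 0.1), first gene minus second, averaged over the pools. Their 95% normal intervals use a pooled SD between pools, taken over the 200 genes of most similar level.

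Hspa1a (chromosome 17, 34969190 to 34972156, minus strand) and Hspa1b (chromosome 17, 34956436 to 34959238, minus strand; GRCm38) are near-identical copies, with 99.2% identity over 2200 aligned bases. The posterior SD of the count, the authors' measure of uncertain read assignment, was 3.99% and 3.57% of the count for Hspa1a. For Hspa1b it was 29.7% and 48.4%. The 150 bases before their RefSeq start sites are shown because both carry a pair of heat shock units, GAANNTTC, in the same place. Such units, in longer runs, make up the heat shock element that Hsf1 is known to bind. Capitals mark the GAA and TTC units, both sequences read on the minus strand of GRCm38.p6, at chr17:34972157-34972306 for Hspa1a and chr17:34959239-34959388 for Hspa1b.
Hspa1a: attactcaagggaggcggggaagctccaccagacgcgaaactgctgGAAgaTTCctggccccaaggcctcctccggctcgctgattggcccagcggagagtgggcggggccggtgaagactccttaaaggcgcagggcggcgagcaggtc
Hspa1b: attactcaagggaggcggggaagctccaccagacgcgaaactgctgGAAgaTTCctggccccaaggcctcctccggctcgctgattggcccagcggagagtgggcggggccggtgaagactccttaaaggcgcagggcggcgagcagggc
These stretches were identical at 149 of 150 positions (99.3%), and the unit pair lay at positions -104 to -97 from the start in both, where -1 is the base before it.

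Other Hsp70 partners fell between these extremes. Dnaja1, a J-domain protein that loads clients onto Hspa8, was at 530 and 503 TPM (516 ± 18.6), and Dnaja2 at 152 and 156 TPM (154 ± 2.54). The heat-inducible J-domain gene Dnajb1 was at 87.8 and 94.2 TPM, a difference of -2.50 log2 units from Dnaja1 (interval -2.64 to -2.36). Among the nucleotide exchange factors, Hsph1 was at 95.7 and 107 TPM and Hspa4 at 110 and 113 TPM. Their difference of -0.14 had an interval that reached 0 (-0.27 to 0.00), so the order of the gene totals is not settled at this spread. The difference turned to 0.12 (-0.02 to 0.26) when transcripts annotated as retained introns were left out. Of the coding transcripts, Hsph1-201 was higher, at 93.8 and 104 TPM against 45.9 and 46.4 TPM for Hspa4-201. Bag3, an exchange factor that links Hsp70 to autophagy, averaged 9.46 ± 0.276 TPM. Hspa2, an Hsp70 best known from male germ cells, averaged 4.62 ± 0.339 TPM (SD, n = 2 each).

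All 4 genes of the cytosolic Hsp90 system were abundant, with a median of 814 TPM. The constitutive Hsp90ab1 was at 1821 and 1826 TPM and ranked 40 among protein coding genes. The inducible Hsp90aa1 was at 888 and 965 TPM, 0.508-fold the level of Hsp90ab1 (interval 0.468 to 0.551). Hsp90aa1 was thereby the highest of the heat-inducible genes. Fkbp4, a prolyl isomerase of the Hsp90 complex with steroid receptors, averaged 702 ± 19.6 TPM. Stip1 (Hop), which hands clients from Hsp70 to Hsp90, averaged 384 ± 18.4 TPM, 0.547-fold the level of Fkbp4 (interval 0.509 to 0.589).

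The 7 listed subunits of the CCT chaperonin lay within a 2.91-fold range. These proteins stand side by side in a hetero-oligomeric ring. By gene total, Cct3 was highest at 729 and 762 TPM, followed by Cct5 at 647 and 687 TPM. Cct8 was at 582 and 593 TPM, and Cct7 at 481 and 498 TPM. Tcp1, the alpha subunit, was at 462 and 455 TPM, Cct4 at 356 and 368 TPM, and Cct2 lowest at 255 and 257 TPM. Against Tcp1, the differences ran from -0.84 for Cct2 (interval -0.95 to -0.73) to 0.70 for Cct3 (0.60 to 0.80). For Cct7 the interval included 0 (0.09, -0.02 to 0.20). This order is that of gene totals. Of the leading coding transcripts, Cct5-201 was above Cct3-201, at 618 and 650 TPM against 473 and 505 TPM. The eighth ring position, filled by Cct6a, is outside the set, and Cct6a averaged 591 ± 5.94 TPM, inside the range of the listed subunits. Its testis-enriched relative Cct6b was at 0.40 and 0.16 TPM.

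The small heat shock proteins, which hold unfolding proteins in soluble complexes without ATP, were low as a class, with a median of 7.31 TPM. Hspb1 was at 20.9 and 20.1 TPM. Hspb8, the partner of Bag3, was at 5.76 and 6.65 TPM, and Cryab at 7.54 and 7.09 TPM. Hspb1 was 3.27-fold above Hspb8 (interval 2.57 to 4.18), and Cryab was 0.360-fold the level of Hspb1 (0.291 to 0.445). The annotated exons of Cryab share 17% of their length with those of Hspb2 on the other strand, and Hspb2 held 27 and 36 estimated counts against 217 and 203 for Cryab.

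Ppia, cyclophilin A, a cytosolic prolyl isomerase, was the highest gene of the set at 5212 and 5211 TPM, and ranked 4 among protein coding genes. Part of its reads may be split with a near-identical copy. The processed pseudogene Gm10123, 99.0% identical to Ppia over 490 bases, held 45232 and 45329 estimated counts, which is 56.1% and 56.6% of the count of Ppia itself. With its 20 near-identical copies added, Ppia averaged 9608 TPM. In all, 13 members had at least 1 such copy and 36 had none, and 45 of the 50 copies found were pseudogenes. Copies held 5% or more of the member's count for 3 members: Hspa1a, Hspa1b and Ppia. For Hspa8 the 10 copies came to 2.68% and 2.92% of its count.

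Among mitochondrial chaperones, the Hsp60 chaperonin and its lid were nearly level. Hspd1 (Hsp60) was at 509 and 537 TPM, and Hspe1 (Hsp10), which caps it, at 572 and 595 TPM. Hspe1 was 1.12-fold above Hspd1 (interval 1.03 to 1.21), a difference that no longer left out 0 when either pool was used alone (0.15, -0.02 to 0.32, in replicate 2, and 0.17, 0.00 to 0.34 after rounding, in replicate 1). Hspa9 (mortalin), the Hsp70 of the matrix and of protein import, was at 254 and 253 TPM, 0.485-fold the level of Hspd1 (0.447 to 0.526). Trap1, the mitochondrial Hsp90, was at 87.6 and 82.9 TPM. That was 0.0468-fold the level of the cytosolic Hsp90ab1 (0.0428 to 0.0511).

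Hspd1 (chromosome 1, 55077835 to 55088243, minus strand) and Hspe1 (chromosome 1, 55088132 to 55091307, plus strand) lie head to head and share 112 bases of annotated exon, so that reads there can belong to either gene. The stretch between their main starts is shown because both promoter windows hold the same run of 4 alternating heat shock units, in capitals, here read on the plus strand of GRCm38.p6 at chr1:55088053-55088082.
Hspe1 and Hspd1: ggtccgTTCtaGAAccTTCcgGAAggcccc
The run lay at positions -89 to -72 from the start of Hspe1 and -144 to -127 from that of Hspd1. It also falls in an annotated exon of the minor transcript Hspd1-202, which held 3.12% and 2.83% of the TPM of Hspd1.

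All 14 ER genes were detected, with a median of 423 TPM and a summed level of 5290 TPM in replicate 1 and 5431 TPM in replicate 2. Serpinh1 (Hsp47), the chaperone specific for procollagen, was the highest of them at 833 and 830 TPM. Hspa5 (BiP), the ER Hsp70 that also holds the stress sensors inactive, was at 765 and 807 TPM. Hsp90b1 (Grp94), the ER Hsp90, was at 499 and 516 TPM. Hspa5 was 1.55-fold above Hsp90b1 (interval 1.43 to 1.68). Both were below the most abundant cytosolic gene of their family. Hspa5 was 0.244-fold the level of Hspa8 (0.226 to 0.265), and Hsp90b1 was 0.278-fold the level of Hsp90ab1 (0.257 to 0.302).

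The lectin chaperones and the disulfide isomerases were also abundant. Calr (calreticulin), the soluble lectin, was at 640 and 669 TPM, and Canx (calnexin), its membrane-bound relative, at 269 and 274 TPM, a 2.41-fold difference (interval 2.21 to 2.63). Of the disulfide isomerases, Pdia6 was at 528 and 544 TPM, Pdia3 at 511 and 529 TPM, P4hb at 473 and 476 TPM and Pdia4 at 263 and 264 TPM. Pdia3 works with the lectins, and P4hb is in addition the beta subunit of collagen prolyl 4-hydroxylase. Pdia6 was 2.03-fold above Pdia4 (1.87 to 2.21). By gene total, Pdia3 was 1.10-fold above P4hb (1.02 to 1.18), an order seen in both pools but with an interval that included 0 in each pool alone. Between their leading coding transcripts the order was the reverse, with Pdia3-201 at 370 and 379 TPM and P4hb-201 at 386 and 404 TPM. Ppib, cyclophilin B of the collagen folding machinery, was at 367 and 375 TPM, 0.0712-fold the level of Ppia (0.0658 to 0.0772). That difference was -3.81 log2 units, and -4.69 (-4.81 to -4.58) with the copies of Ppia added. Annotated exons of Snx22 on the other strand cover 25.0% of those of Ppib, but Snx22 held 231 and 240 estimated counts against 8384 and 8505 for Ppib. Exons on the other strand also covered 19% of those of Hspa1a (Gm20481, with 0 counts), 11.4% of Tcp1 (Acat3), 10.3% of Hsp90b1 (1810014B01Rik), 7.05% of Dnaja1 (Smu1) and 6.22% of Cct8 (Usp16). Whether the counting used strand is not given, so reads in these stretches cannot be assigned to either gene with certainty.

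The ER J-domain cochaperones were lower. Dnajb11, which assists BiP in folding, was at 74.6 and 75.8 TPM, and Dnajc3 (p58IPK), which also curbs the kinase Eif2ak3, at 27.5 and 30.2 TPM. Dnajb9 (ERdj4), which steers misfolded protein to degradation and represses Ern1, was at 17.1 and 17.5 TPM. Dnajb11 was 4.34-fold above Dnajb9 (interval 3.68 to 5.11) and Dnajc3 was 1.67-fold above it (1.41 to 1.97). Hspa13, an atypical Hsp70 of microsomes, was at 21.9 and 22.4 TPM.

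Promoter windows from RefSeq (GRCm38.p6), 250 bases before to 50 bases after the start, were found for 13 of the 14 ER genes. The ER stress element, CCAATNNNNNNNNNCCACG, the site of the cleaved Atf6 factor together with NF-Y, matched in 6 of these 13. The matches are shown with 5 flanking bases on each side, turned so that all read in the same direction, with the fixed letters of the element in capitals. They lie on the plus strand at chr8:84847070-84847098 (Calr), chr14:118937822-118937850 (Dnajc3), chr10:86705528-86705556 (second match of Hsp90b1), chr2:34772020-34772048 (Hspa5) and chr12:17266486-17266514 (Pdia6), and on the minus strand at chr11:50325795-50325823 (Canx) and chr10:86705633-86705661 (first match of Hsp90b1).
Calr: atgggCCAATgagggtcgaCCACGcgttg
Canx: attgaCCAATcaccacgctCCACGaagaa
Dnajc3: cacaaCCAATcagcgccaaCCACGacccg
Hsp90b1, first match: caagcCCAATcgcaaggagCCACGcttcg
Hsp90b1, second match: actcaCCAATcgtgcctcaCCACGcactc
Hspa5: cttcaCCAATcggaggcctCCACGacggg
Pdia6: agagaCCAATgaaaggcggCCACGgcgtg
The element began between positions -212 and -65 from the start. Besides these, Dnajb11 held the shorter ER stress element II, ATTGG and CCACG with 1 base between them, 8 to 18 bases into the transcript, at chr16:22857847-22857867 on the plus strand with its flanks.
Dnajb11: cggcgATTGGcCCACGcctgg

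Over all 40 members with a promoter window, the ER stress element was held by 6 (15.0%), against 0.137% of 27025 genes, a gene counting once if any of its starts matched on either strand. ER stress element II was held by 1 member (2.50%), against 0.0444%. The UPR element TGACGTGG was held by 0 members, against 0.714%. The heat shock units in head-to-head order, GAANNTTC, were held by 11 members (27.5%), against 9.04%. In tail-to-tail order, TTCNNGAA, they were held by 4 members (10.0%), against 9.60%. A run of 3 alternating units at the same spacing contains both of these pairs, and was held by Hspd1, Hspe1 and Hsph1 (7.50% of members), against 0.662%. Either heat shock pair was found in 6 of the 7 genes classed as heat-inducible with a window. It was found in 4 of the 13 cytosolic genes classed as constitutive and in 0 of the 13 ER genes. The 6 include Hspa1a and Hspa1b, whose promoters are near-identical. The share of all genes that hold either pair was not computed, so these counts have no background beside them. Many of these genes are textbook targets of the same factors, and a match is a run of letters, not a measured binding site.

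**Figure D2:**
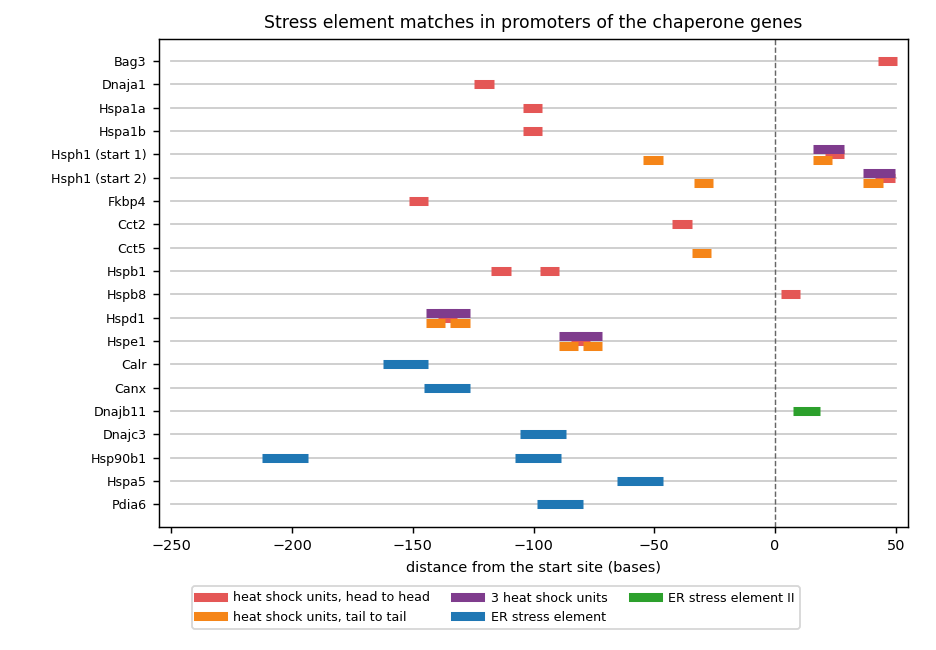
Positions of stress element matches in the RefSeq promoter windows of the 19 members that held any, in bases from the start site (dashed line). Each gray line is a window of 250 bases before to 50 bases after a start, and Hsph1 has 2 starts. Heat shock units (red, orange, purple) fall in cytosolic and mitochondrial genes, and ER stress elements (blue, green) in ER genes.

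The 6 stress regulators were low to moderate, with a median of 25.8 TPM. Hsf1, the main activator of heat shock genes, was at 61.2 and 64.9 TPM, and Hsf2, its relative, at 39.3 and 39.5 TPM, a 1.60-fold difference (interval 1.41 to 1.81). Of the ER sensors, Atf6, a membrane-bound factor released by cleavage, was at 5.92 and 6.65 TPM, and Ern1 (IRE1 alpha), the kinase and RNase that splices Xbp1, at 4.61 and 4.51 TPM. Atf6 and Ern1 differed by 0.45 log2 units with an interval from -0.06 to 0.97, so no order can be given. Xbp1 was far above both at 100 and 108 TPM, 16.3-fold the level of Atf6 (12.7 to 21.0). Splicing of Xbp1 by Ern1 cannot be read from transcript sums of this annotation and was not analysed here. Ddit3 (CHOP), a factor induced in lasting ER stress, was at 14.1 and 10.3 TPM, 1.91-fold the level of Atf6 (1.42 to 2.56). Its exons share 68 bases with those of Mars on the other strand, which held 6787 and 7279 estimated counts against 277 and 214 for Ddit3.

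Split by assigned stress class, the cytosolic genes fell into unequal groups. No response to heat was measured in this series, so a gene classed as constitutive may still be inducible. The 9 heat-inducible genes (Hspa1a, Hspa1b, Hsph1, Dnajb1, Bag3, Hsp90aa1, Hspb1, Hspb8 and Cryab) had a median of 9.46 TPM and ranged from 0.115 to 927 TPM. The 16 genes classed as constitutive had a median of 503 TPM and ranged from 4.62 TPM for Hspa2 to 5211 TPM for Ppia. The groups overlapped: Hsp90aa1 was above the constitutive median, and Hspa2 was below the heat-inducible one. Immediate early genes, which respond to handling of tissue, had a median of 2.06 TPM over 7 genes, 6 of them detected. Among them Fos was at 1.56 and 1.13 TPM and Egr1 at 1.93 and 2.20 TPM, whereas Jun was at 65.9 and 58.3 TPM and Ier2 at 118 and 124 TPM. Their relation to the heat shock genes was not tested.

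Of the 29 pairs of related genes that were compared, 26 had an interval that left out 0. These intervals cover the spread between pools only, not errors of read assignment or annotation. The share among pairs of genes drawn from the whole data was not computed, so the count is not particular to chaperones. The largest difference was that between the inducible and the constitutive Hsp70 genes.

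**Figure D3:**
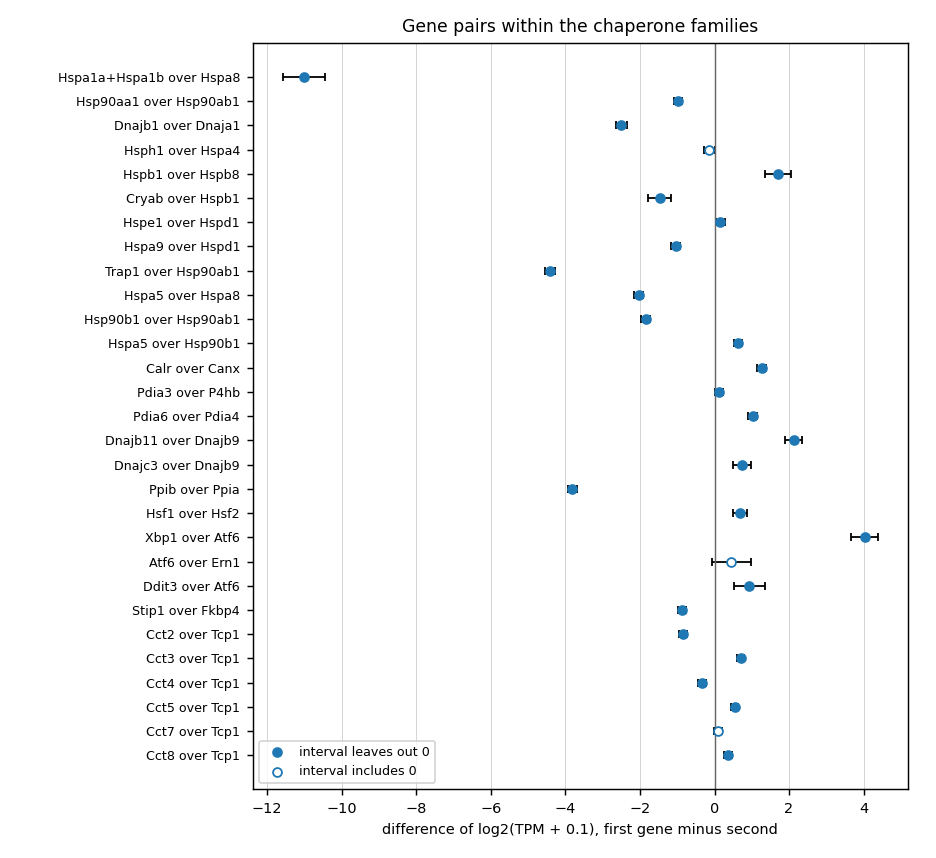
Difference of log2(TPM + 0.1), first gene minus second, for 29 pairs of related genes, as the mean of 2 pools with a 95% normal interval from the pooled SD. Filled points have an interval that leaves out 0, and open points, for Hsph1 over Hspa4, Atf6 over Ern1 and Cct7 over Tcp1, have one that includes it.

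Transcript shares were alike in both pools. The same transcript led in 32 of the 32 members with at least 2 annotated transcripts and a level of at least 5 TPM, against 93.8% of 7738 genes. A further 16 members had 1 annotated transcript. In several abundant genes a sizeable part of the TPM went to transcripts annotated without a full reading frame. Retained introns held at least 10% of the TPM of 7 members. They took 31.1 ± 0.921% in Cct3, 27.9 ± 0.640% in Calr, 25.2 ± 0.353% in Hspa8 and 19 ± 0.169% in Ppia (SD, n = 2 each). These transcripts are short, and in counts their share was smaller, at 6.57% and 6.42% of the reads of Hspa8 and 10.3% and 9.98% of those of Cct3.

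Other transcript types led or followed in a few genes. In Ppia the leading transcript, Ppia-201, held 79.3% and 79% of the TPM and is annotated as a target of nonsense-mediated decay in the release used for names. In Hspa4 a processed transcript (Hspa4-203, 42.2% and 42.3%) and the coding Hspa4-201 (41.8% and 41.1%) were level. Transcripts annotated to nonsense-mediated decay took 27.6 ± 0.483% of Cct8 and 27.5 ± 0.553% of Pdia3. Hsp90aa1 was split between Hsp90aa1-208 (48.9% and 50.4%) and Hsp90aa1-202 (32.6% and 31.4%). Shares were least steady in the low Ern1, where Ern1-202 held 39.8% in replicate 1 and 26.7% in replicate 2, and in Ddit3, where Ddit3-201 held 70.5% and 81.6%.

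**Figure D4:**
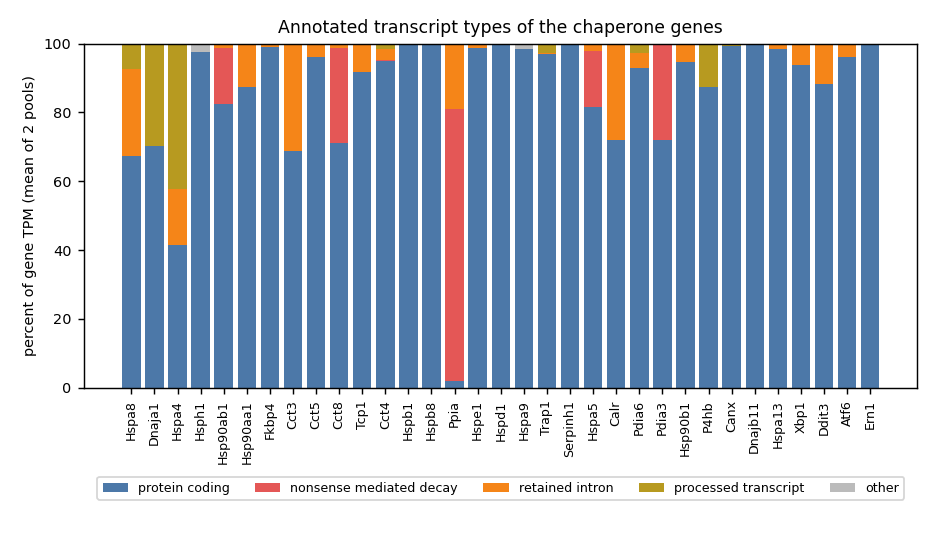
Percent of each gene's TPM held by its annotated transcript types, as the mean of 2 pools, for the 33 members with more than 1 transcript. Most bars are chiefly protein coding (blue), and Ppia stands apart with 79.2% on a transcript annotated to nonsense-mediated decay (red).

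Between the pools, none of the 48 members with a mean estimated count of at least 50 was 2-fold apart after TMM scaling, nor 1.5-fold, against 1.23% of 14035 genes at least 2-fold apart, a share at which a list of this length can hold none. The median size of the log2 ratio was 0.076 for the members and 0.094 for all genes, most of which are lower in level. Against the 200 genes nearest in level, the median difference of those genes was larger than the member's own for 19 of 48 members. Hsph1 differed by 0.19, against a median of 0.06 among genes of like level. Hspa8 (0.155 against 0.049) and Stip1 (0.128 against 0.044), both classed here as constitutive, also differed by more than genes of like level. Hspa1a differed most, with a log2 ratio of replicate 2 over replicate 1 of 0.56, followed by Ddit3 at -0.33. For Hspa1a the 200 genes nearest in level had a median absolute log2 ratio of 0.34, and for Ddit3 0.10.

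The small differences mostly had one sign. With TMM scaling, 42 of the 48 members (87.5%) were higher in replicate 2, against 51.9% of all genes, but with scaling to the spike-in controls 2 of 48 were, against 9.23%. Of the 31 members at 100 TPM or more, 30 were higher in replicate 2 with TMM scaling, against 65.3% of all genes at that level, and 0 were with spike-in scaling, against 1.13%. All 14 ER genes were higher in replicate 2 with TMM scaling and 0 with spike-in scaling. Spike-in scaling shifted the median of all genes to -0.21 on the log2 scale. The position of a member relative to the median of all genes was the same under each scaling. This holds by construction, because a scaling shifts the log2 ratios of all genes by nearly the same amount. It therefore cannot tell the scalings apart. Under each scaling 42 of 48 members were above the median of all genes, and the members' own median lay 0.06 log2 units above it. That median is over genes of all levels, most of them lower than the members. The spike-in controls took 3.46% of the counts in replicate 1 and 3.94% in replicate 2. Which scaling describes the pools better was not tested.

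**Figure D5:**
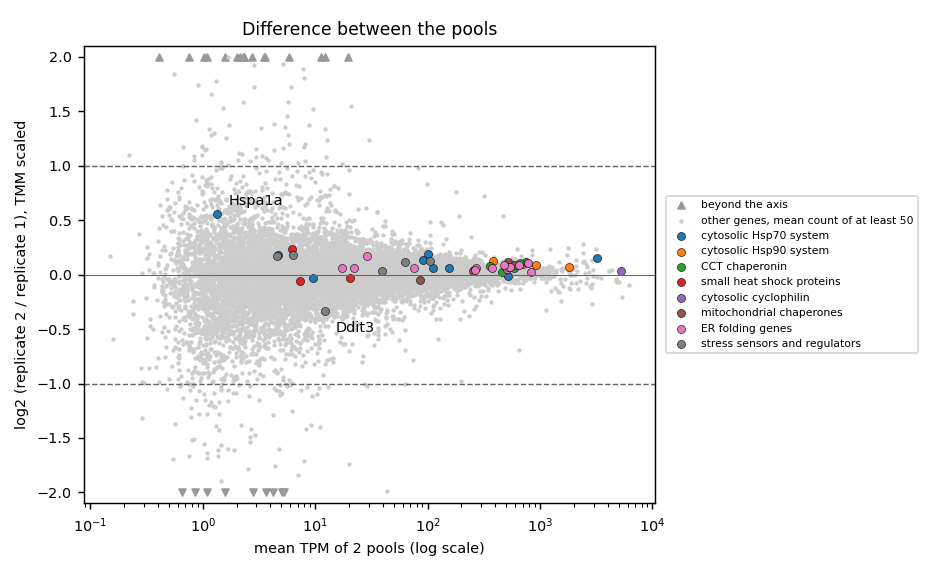
Log2 ratio of replicate 2 over replicate 1 after TMM scaling against mean TPM (log scale), for members by class (coloured) and all 14035 genes of mean count at least 50 (gray). Dashed lines mark 2-fold, and triangles mark genes beyond the axis. Members lie close to 0 and mostly above it, 42 of 48 with this scaling and 2 of 48 with spike-in scaling, and Hspa1a and Ddit3 lie farthest out.

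Other genes of the same pathways, 90 in 5 lists, were detected in 82 cases, against 58.2% of the named protein coding genes. Of the 83 with a mean count of at least 50, 0 were 2-fold apart between the pools, against 1.23% of all such genes. At that share a list of this length can hold none. The 29 other cytosolic chaperones and cochaperones, 26 of them detected, had a median of 26 TPM. Among the highest were the Hsp90 cochaperones Ptges3 (p23) at 607 ± 6.53 TPM and Ahsa1, which stimulates the Hsp90 ATPase, at 247 ± 6.46 TPM, whereas Hspb3 and Hspb7, small heat shock proteins of muscle, averaged 0.0850 and 0.0800 TPM. Hspa1l, a relative of Hspa1a best known from testis, was at 0.93 and 0.95 TPM. The 10 prefoldin and further CCT genes, 9 of them detected, had a median of 143 TPM, led by Cct6a and by Pfdn5, a prefoldin subunit, at 297 ± 0.233 TPM.

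The organelle lists had lower medians than the listed members of the same organelle, with overlap. The 10 other mitochondrial genes, all detected, had a median of 50.4 TPM, led by the protease subunit Clpp at 117 ± 1.94 TPM, against 388 TPM for the 4 listed ones. The 27 other ER genes, all detected, had a median of 37.6 TPM, led by Manf, a secreted ER stress protein, at 223 ± 12.4 TPM and Txndc5, a disulfide isomerase, at 145 ± 7.52 TPM. Clgn, the calnexin relative of germ cells, was lowest at 2.00 TPM. Of 14 other stress regulators 10 were detected, and the median of the 14 was 11.2 TPM. The protease Mbtps1, which cleaves Atf6, averaged 93.6 ± 0.460 TPM, Atf4, the factor upstream of Ddit3, 89.5 ± 3.31 TPM, and Atf6b, the relative of Atf6, 87.0 ± 0.0283 TPM. Ern2, the gut relative of Ern1, was at 0.04 TPM in both pools.

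The tissue label was checked against marker genes. All 10 facial mesenchyme markers were detected, with a median of 54.6 TPM. After TMM scaling 6 of the 10 were lower in replicate 2, where 51.9% of all genes were higher. Msx1 was at 303 TPM in replicate 2 and 281 TPM in replicate 1, and Alx1 at 47.8 and 78.8 TPM in the same order (log2 ratio -0.69). All 5 epithelial markers were detected, with a median of 51.6 TPM. Other cells were present too: erythroid markers summed to 10743 TPM in replicate 1 and 9721 TPM in replicate 2, and all 5 endothelial, all 5 macrophage and all 5 neural markers were detected, with medians of 16.0, 11.2 and 55.1 TPM in that order. The neural gene Hes5 was at 126 TPM in replicate 2 and 71.2 TPM in replicate 1 (log2 ratio 0.83). With TMM scaling 4 of the 5 neural, 4 of the 5 endothelial and 4 of the 6 erythroid markers were higher in replicate 2, against 51.9% of all genes. Marker counts were not made with spike-in scaling. Of 6 heart and muscle markers 1 was detected in both pools (Actc1, at 8.10 and 16.8 TPM), but all 6 were at least 2-fold apart, 4 of them higher in replicate 2. Macrophage markers, 5 of 5, were lower in replicate 2. Of 4 liver markers 2 were detected, and Alb (albumin) was listed at 0 in both pools. The part of these cells in the chaperone levels, and in the differences between the pools, was not tested.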

How the data were processed

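Total RNA of 2 pools was quantified by the authors per gene and per transcript. Per the notes deposited with the files, the reads were assigned to annotation M4 on assembly mm10. The aligner, quantifier and use of strand are not given in the sources used here. The authors deposited estimated counts (expected counts), their posterior SD, TPM scaled over all features, and each transcript's percent of its gene's TPM, per the file headers. Symbols, types and coordinates came from GENCODE M21 (GRCm38) by identifier.

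Members, classes and lists were chosen with earlier results of these data known. All members, all marker genes, up to 4 of the highest and 2 of the lowest genes of each other list, and copies holding at least 5% of a member's count could be named, and Hspa1l and the overlapping genes were named after their values had been seen. Replicate ratios used expected counts, TMM scaling (edgeR 4.0.16, R 4.3.3) and a prior count of 2. Pair intervals used log2(TPM + 0.1). Copies aligned with BLAST 2.17.0 at 90% identity or more, over at least 50% of the copy and 100 bases, outside the member's own locus. Tables were handled with Python 3.11.15 and pandas 2.3.3. The code for the ratio calls and intervals was run on simulated data, with noise drawn independently for each gene from its level. The intervals assume such noise, so that run cannot show how errors of read assignment, transcript annotation or copies affect them. Alternatives were DESeq2 1.42.0 size factors, total counts, spike-in scaling, posterior mean TPM, rescaled TPM, other thresholds and pseudocounts, each pool left out, and retained introns left out. Spike-in scaling and leaving out retained introns were chosen after the data had been seen. The posterior SD of the count was 0 in both pools for 33 members.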

Additional observations from a re-analysis of the deposited data

How the results depend on the processing

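Of the 29 pair differences, 1 turned sign: Hsph1 over Hspa4 came to 0.12 without retained-intron transcripts. That setting also moved Cct7 over Tcp1 to 0.21, past the spread. No setting used coding transcripts alone. With 1 pool alone, Hspe1 over Hspd1 ranged from 0.15 to 0.17 and Pdia3 over P4hb from 0.11 to 0.15, both within the spread, and Hsph1 over Hspa4 from -0.20, past it, to -0.07. The 4 pseudocount and spread settings, posterior mean TPM, rescaled TPM and added copies left all 29 pairs on the same side, though Ppib over Ppia moved to -4.69 with copies and Hspa1a plus Hspa1b over Hspa8 to -10.36 at a pseudocount of 1 TPM. Detection held for 48 members, or 45 at 5 TPM. No member passed the fold threshold under any of the 7 alternatives run. With spike-in scaling, 2 members were higher in replicate 2. TPM rescaled to genes alone raised the class medians to 105 (Hsp70), 889 (Hsp90), 535 (CCT), 7.99 (small heat shock proteins), 424 (mitochondrial), 462 (ER), 28.2 (regulators), 10.3 (heat-inducible) and 549 TPM (constitutive), by construction. Geometric means in place of medians were 33.5 (Hsp70), 9.76 (small heat shock proteins), 285 (mitochondrial), 220 (ER), 21.2 (regulators), 13.1 (heat-inducible) and 441 TPM (constitutive). Posterior mean TPM gave 414 TPM (ER) and 492 TPM (constitutive), the Hsp90 median was 753 TPM without retained introns, and copies raised the constitutive median to 516 TPM. Depth limits Hspa1a and Hspa1b most. No paired comparison of conditions was possible because the series has 1 group. The gene pairs were compared within each pool, and their intervals treat the 2 genes of a pair as independent.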
